A study of Rattus norvegicus with 12 samples.

Results

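The microRNA genes described here lie in a stretch of rat chromosome 6 that holds the imprinted Dlk1-Dio3 microRNA cluster. They were chosen by position alone, as all microRNA features of the deposited table that start in a fixed window of chromosome 6 of genome build rn7, whether or not reads were counted on them. Their starts run from 127754027 (Mir345) to 128763161 (Mir3072). The window held 45 of the 444 features in the table, and 432 of the 444 are microRNA genes. The libraries came from whole liver of male Sprague-Dawley rats (Jcl:SD, an outbred stock), aged 7 weeks when they were divided into groups and dosed by mouth on 5 days in a row. Control rats received the vehicle, sterile distilled water. CAF rats received caffeine at 120 mg/kg, DEX rats received dextromethorphan hydrobromide monohydrate at 100 mg/kg, and CAF+DEX rats received both at these doses. Liver was taken 1 h after the last dose. The labels give 5 rats per group, and 3 libraries per group are analysed here. No label ties a library to a rat, so p-values measure the spread between these libraries, which may be technical. The numbers of the libraries are those of the column headers and serve as names. In a whole tissue, fewer cells of a type and less RNA per cell cannot be told apart.

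At this locus the 2 parental chromosomes are used differently. The protein-coding genes Dlk1, Rtl1 and Dio3 are expressed from the paternal copy, and the long noncoding RNA Meg3 and the microRNAs downstream of it are expressed from the maternal copy. The microRNAs are cut from long maternal transcripts, are abundant in embryo, placenta and brain, and are low in most adult tissues, liver included. The microRNAs antisense to Rtl1, among them miR-127 and miR-136, pair perfectly with the Rtl1 transcript and direct its cleavage. The group from miR-379 to miR-410 is needed in newborn mice for the switch to glucose production in liver.

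Mature sequences of the 6 cluster members with most reads, and of Mir376c and Mir494, are shown first. Some of them are close relatives, and a short read may not tell Mir376b from Mir376c. The 5p products of Mir337 and Mir494 are not shown. RefSeq (build GRCr8) held mature sequences for 42 of the 45 members, 72 sequences in all. In the first lines below the capitals mark the seed, bases 2 to 8 from the 5′ end, which sets most target pairing.
miR-127-3p: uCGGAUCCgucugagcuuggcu
miR-136-3p: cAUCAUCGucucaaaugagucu
miR-337-3p: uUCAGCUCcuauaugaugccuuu
miR-379-5p: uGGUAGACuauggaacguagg
miR-379-3p: cUAUGUAAcaugguccacuaac
miR-411-5p: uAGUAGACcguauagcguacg
miR-411-3p: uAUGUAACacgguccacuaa
miR-376b-3p: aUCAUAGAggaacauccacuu
miR-376c-3p: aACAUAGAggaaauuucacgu
miR-494-3p: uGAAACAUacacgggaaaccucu

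The seed of miR-379-3p, which starts at its second base, stands at bases 1 to 7 of miR-411-3p, so the 3p products of these neighbours differ by a shift of 1 base in this stretch. No seed was shared by their 5p products. Among all 72 mature sequences, 2 seeds occurred in more than 1 member. GGUUGUC was shared by the 5p products of Mir494, Mir496 and Mir410, and UGGAUAU by those of Mir376b and Mir376c. The 5p products of Mir376b and Mir376c are shown next, with their common first 18 bases in capitals.
miR-376b-5p: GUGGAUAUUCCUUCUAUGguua
miR-376c-5p: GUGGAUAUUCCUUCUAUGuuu

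The deposited values count reads per microRNA gene, so the 5p and 3p products of a gene cannot be told apart. They are FPKM, counted reads scaled to the length of the feature and to the reads of the library, from which the reads themselves could be recovered. Of the 30 members with any read, 27 had whole reads in all libraries, 3 did not. Mir376b and Mir376c had values ending in 0.5 of a read in the same 4 libraries, and Mir345 had fractions of a read in 2 libraries. Mir376b and Mir376c may therefore share reads, and their values are uncertain to that extent.

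Each library held between 2863572 and 3418568 reads on the listed features. A member at 0 reads in a library was compatible with a level of up to 0.88 to 1.05 rpm (reads per 1000000 counted reads), the level of 3 reads. Intervals and these limits cover counting error only. The labelled tissue was checked on hepatocyte microRNAs, of which 6 of 7 had a row and summed to 258504 to 289131 rpm per library. The 9 of 12 neuron and pancreas markers with a row summed to 28.8 to 52.9 rpm, most of it Mir375.

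One member does not lie in the cluster. Mir345 (chromosome 6, 127754027 to 127754122, plus strand, rn7) is 761712 bases before the next member, Mir770, and in RefSeq's gene order it comes before Dlk1, while Mir770 lies inside Meg3. It alone took 81.9% of the reads in the window, with 848 to 1091 reads per library. The other 44 members span 247437 bases and are called the cluster below. The nearest features outside the window were Mir342, with 572 to 1166 reads, and Mir1247, which lies just before Dio3 in RefSeq's order, with 3 to 22 reads.

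Reads were counted on plus-strand members only in these 12 libraries. All 37 plus-strand members of the window, Mir345 included, were compared with the 8 on the minus strand. At least 1 read was counted on 30 of the 37, and 0 reads on all 8 minus-strand members, Mir3543-2, Mir299b, Mir3579, Mir3595, Mir3576, Mir3592, Mir3581 and Mir3578, over 96 library values. In RefSeq 7 of these 8 could be matched by name, and each of the 7 lies opposite a plus-strand microRNA gene (Mir299, Mir380, Mir376a, Mir539, Mir382, Mir409 and Mir369). Of these partner genes, 0 had a value here, so their levels cannot be read from these data. The sources used here do not say whether the authors' counting used strand, and without strand the reads of such a pair cannot be told apart. The plus-strand members at 0 in all libraries were Mir770, Mir433, Mir1188, Mir758, rno-mir-679, Mir410 and Mir3072.

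**Figure D1:**
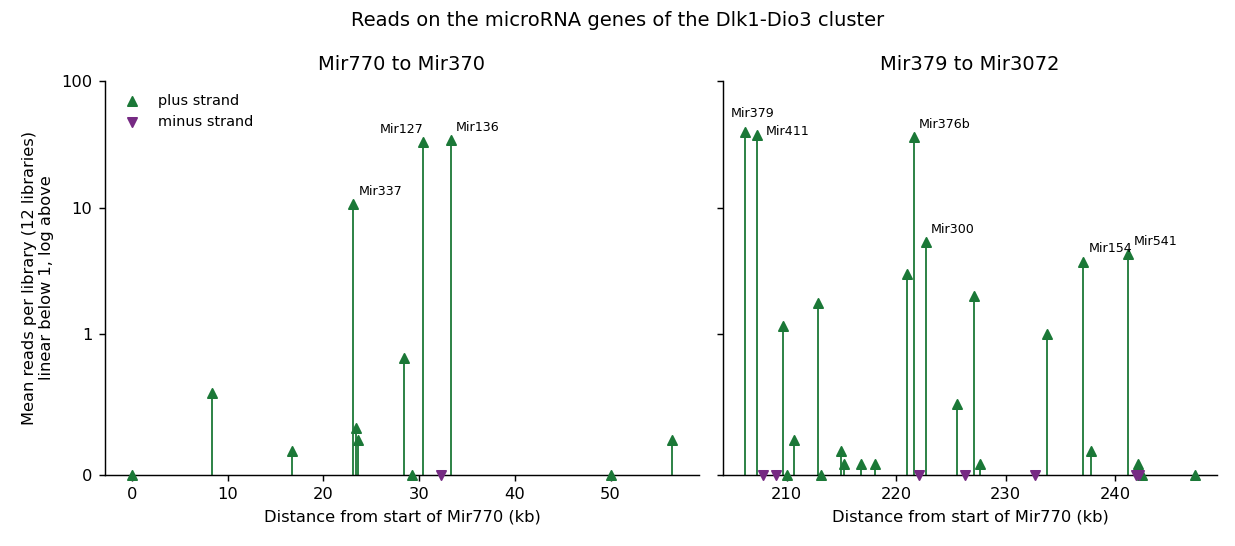
Mean reads per library over the 12 libraries (vertical axis, linear below 1 and logarithmic above) for the 44 cluster members by distance from the start of Mir770 in kilobases, with upward triangles for the plus strand and downward triangles for the minus strand. All 8 minus-strand members sit at 0, and 5 plus-strand members stand above 30 reads.

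Along the chromosome the cluster falls into a pair of blocks separated by its largest gap, 149704 bases between Mir370 and Mir379. The first block, from Mir770 to Mir370, holds 13 members within 56501 bases and took 36.8% of the cluster's reads. It contains the microRNAs that lie within the span of Rtl1 in RefSeq, Mir431, Mir433, Mir127 and Mir136. Of its 13 members 9 had a read in any library and 3 in all 12. The second block, from Mir379 to Mir3072, holds 31 members within 41232 bases and took 63.2%. Of these 31, 20 had a read in any library and 7 in all 12. The shares of both blocks cover only genes with a row. The 7 genes named above as opposite minus-strand members, which had no value here, all lie opposite members of the second block. The map of mean reads shows that high members, low members and members at 0 are mixed within each block, and that neighbours could differ widely. Mir433 had 0 reads in 12 libraries and lies 997 bases from Mir127, which had 393 in all.

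A group of 5 members carried most of the signal. Mir379 (128722040 to 128722124), Mir411 (128723184 to 128723279), Mir376b (128737456 to 128737541), Mir136 (128549096 to 128549177) and Mir127 (128546215 to 128546311), all on the plus strand, together took 83% of the cluster's reads. Per length, Mir379 was highest with a mean of 148.3 FPKM over the 12 libraries, rank 154 of the 444 features. Mir376b followed with 132.6, Mir136 with 132.3, Mir411 with 122.8 and Mir127 with 106.6 FPKM. The spread between libraries was wider than these differences, so the 5 are not separated in this order. Mir337 (128538902 to 128538998) came next with 34.8 FPKM and 6 to 20 reads per library.

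The remaining 38 cluster members averaged under 10 reads. Mir300, Mir541, Mir154 and Mir376c had a read in every library and between 1 and 11 reads each. Mir6331 was above 0 in 11 libraries, Mir494 in 10, Mir323 and Mir485 in 8 each, Mir431 in 7 and Mir673 in 5. Mir540, Mir370 and Mir487b were above 0 in 3 libraries each, and 10 members in only 1 or 2. In the whole cluster 32 of the 44 members never had more than 3 reads in a library. Of the 44, 22.7% had a read in all 12 libraries, against 53% of the 387 microRNA features outside the window. The 44 include the 8 minus-strand members at 0 but not the genes opposite them, which had no value here.

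The 44 members of the cluster were rare in sum, and this sum varied between libraries of the same group. This sum covers only genes with a row. It leaves out the 7 genes opposite minus-strand members, which had no value here. Mir3544, which RefSeq places opposite Mir337, and any other cluster gene without a row are also left out. In Control the 44 members summed to 53.6, 58.2 and 87 rpm in libraries 1, 3 and 4. In CAF the sums were 80.3, 113.3 and 61.6 in libraries 1, 2 and 5, the highest and widest set. DEX libraries 1, 2 and 4 had 53.7, 69.5 and 64.8. CAF+DEX libraries 1, 2 and 5 had 61.4, 84.6 and 36. The means were 66.3 ± 18.1 rpm in Control, 85.1 ± 26.2 in CAF, 62.7 ± 8.11 in DEX and 60.7 ± 24.3 in CAF+DEX (SD, n = 3 each). All 4 groups overlapped.

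The extreme libraries were CAF library 2, at 113.3 rpm (95% exact binomial interval 101.7 to 125.7), and CAF+DEX library 5, at 36 (29.9 to 43). In CAF library 2, 16 of the 19 cluster members above 0 in at least 3 libraries lay above their own median over the 12 libraries. In CAF+DEX library 5, 14 of the 19 lay below it. Muscle markers, of which 3 of 7 had a row and none was at 0 throughout, summed to 6.7 rpm in CAF library 2 and 23.6 in CAF+DEX library 5. By group they ranged over 9.8 to 21.2 (Control), 4.6 to 7.99 (CAF), 10.9 to 17.5 (DEX) and 8.74 to 23.6 (CAF+DEX). Stellate and mesenchymal markers, 5 of 6 with a row, stood at 33281 and 29210 in the same 2 libraries, within a range of 27143 to 36208 over all 12. The part of these markers in the cluster's level was not tested.

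**Figure D2:**
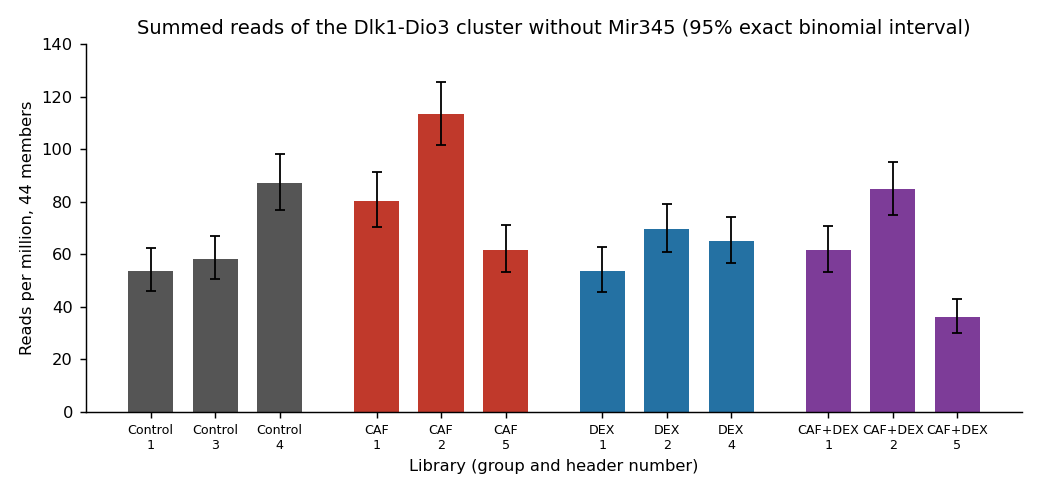
Summed rpm of the 44 cluster members in each of the 12 libraries (bars, coloured by group), with 95% exact binomial intervals for counting error. CAF library 2 is highest at 113.3 and CAF+DEX library 5 lowest at 36, and the groups overlap.

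The abundant members differed in how much they varied among libraries of a group. For Mir127 the variance within groups was 11.82 times that of counting alone, for Mir379 9.81 times and for Mir411 5.54 times. For Mir136 this ratio was 2.22, for Mir337 1.44 and for Mir376b 0.66. Mir376b thus spread no more than counting gives. These ratios rest on 8 degrees of freedom and are descriptions. The highest library exceeded the lowest 7.33 times for Mir127, in rpm, and 1.9 times for Mir376b.

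Mir127, Mir379 and Mir411 moved together over the libraries although Mir127 lies in the first block and the others in the second. Among 15 pairs of the 6 most abundant cluster members, on log2 rpm over 12 libraries, 3 passed a two-sided permutation test of Pearson's r with Benjamini-Hochberg adjustment. Mir127 and Mir411 had r = 0.81 (permutation p = 0.0011, adjusted 0.007) and Spearman's rho = 0.79 (permutation p = 0.0034, adjusted 0.025). Mir379 and Mir411 had r = 0.78 (permutation p = 0.0014, adjusted 0.007) and rho = 0.81 (permutation p = 0.002, adjusted 0.025). Mir127 and Mir379 had r = 0.85 (permutation p = 0.0005, adjusted 0.007), while rho was 0.63 (permutation p = 0.033) and did not pass after adjustment (0.17). Without CAF library 2 and CAF+DEX library 5, the 2 libraries farthest from the median, r was 0.69, 0.63 and 0.65 for these pairs. On deviations from the group means r was 0.85, 0.79 and 0.84, so the relation was as large within groups. The points share library, depth and group.

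Mir376b did not follow these 3. Its r was 0.13 with Mir127 (permutation p = 0.68), 0.37 with Mir379 (permutation p = 0.24) and 0.28 with Mir411 (permutation p = 0.37). Its highest r was with Mir136, at 0.53 (permutation p = 0.08, adjusted 0.25), and was 0.04 on deviations from the group means. The difference between these correlations was not tested.

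**Figure D3:**
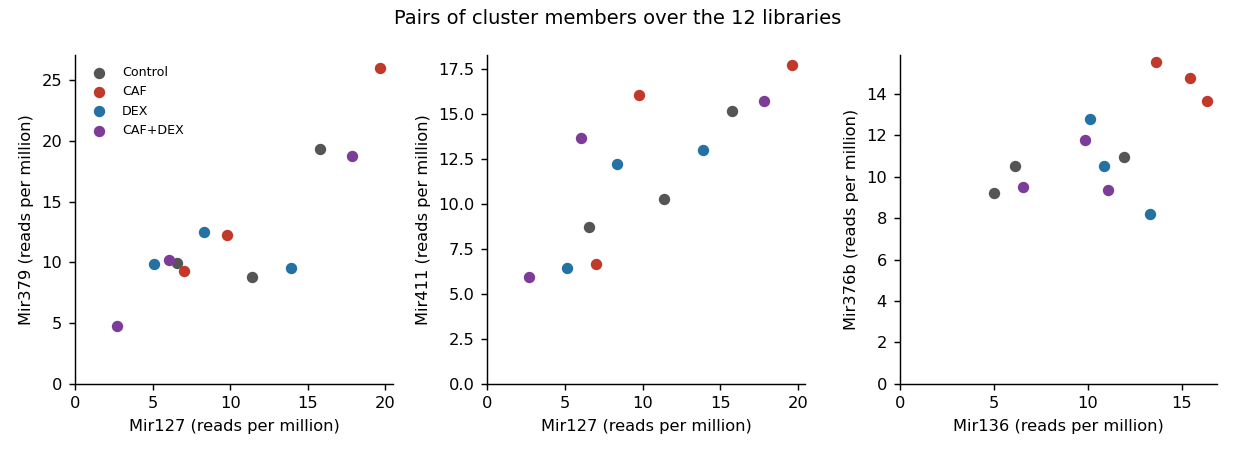
Level in rpm of pairs of cluster members in the 12 libraries, coloured by group: Mir127 with Mir379, Mir127 with Mir411, and Mir136 with Mir376b. The first and second pairs (r = 0.85 and 0.81) run from CAF+DEX library 5 at the low end to CAF library 2 at the high end, and the third pair (r = 0.53) separates the CAF libraries at the upper right.

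For the comparisons between groups, all 293 features with reads in 3 or more of the 12 libraries were fitted in limma on log2(FPKM + 4.01), a scale that understates the change of rare features. This filter kept 20 members, Mir345 and 19 of the cluster. No member was kept through a single group. Mir540, Mir370 and Mir487b, however, passed with reads in only 3 libraries, most of them in 1 group. Such members had to differ between some groups, so counts over the 20 describe and support nothing. No member passed an adjusted p of 0.05 in any of the 8 contrasts or in the test of any difference between the 4 groups, in limma or in limma-voom. The members with an unadjusted p under 0.05 were 2 in CAF against Control, 1 in DEX against Control, 0 in CAF+DEX against Control, 3 in CAF+DEX against CAF and 1 in CAF+DEX against DEX.

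**Figure D4:**
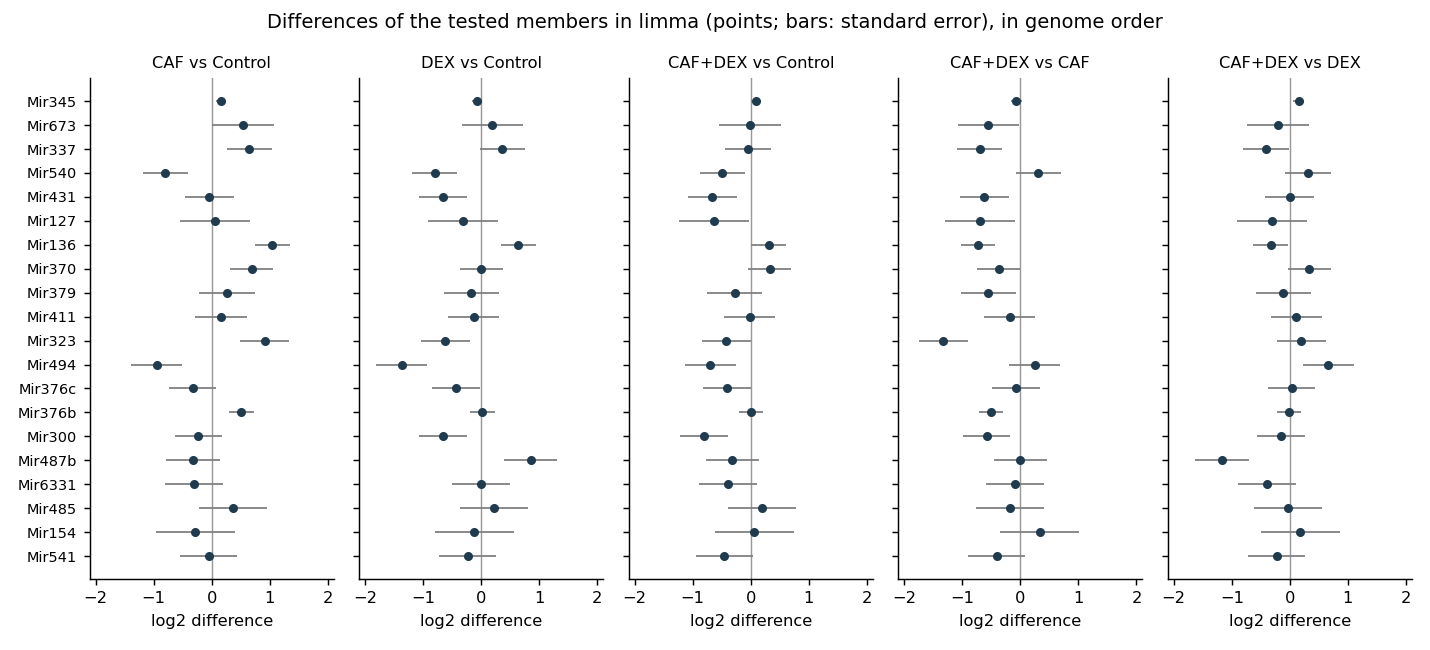
Log2 differences of the 20 tested members in genome order (points) with standard errors (bars) for the 5 pairwise comparisons. Mir136 and Mir376b lie to the right in CAF against Control (1.04 and 0.51) and to the left in CAF+DEX against CAF (-0.73 and -0.51); these comparisons share the CAF libraries.

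Caffeine alone was compared with vehicle. Mir136 and Mir376b were the members that stood highest after caffeine relative to their spread. Mir136, which lies antisense to Rtl1, had 16, 21 and 37 reads in Control libraries 1, 3 and 4, and 39, 48 and 49 in CAF libraries 1, 2 and 5. This is 7.69 ± 3.72 rpm in Control and 15.1 ± 1.38 in CAF (SD, n = 3 each). Every CAF library lay above every Control library. The log2 difference was 1.04 (SE 0.30, limma, Benjamini-Hochberg adjusted p = 0.131). Leaving out 1 library in turn gave 0.79 to 1.39. The highest of these, without Control library 4, passed (limma adjusted p = 0.0311), and the lowest, without Control library 1, did not (0.348).

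Mir376b, from the second block, had 29.5, 36 and 34 reads in Control and 44.5, 46 and 41 in CAF. Again every CAF library lay above every Control library, at 14.7 ± 0.952 against 10.2 ± 0.918 rpm (SD, n = 3 each). The log2 difference was 0.51 (SE 0.21, limma adjusted p = 0.361). It did not pass.

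The remaining abundant members overlapped between CAF and Control. Mir127 had 21, 39 and 49 reads in Control and 28, 61 and 21 in CAF. Mir379 had 32, 30 and 60 reads in Control and 35, 81 and 28 in CAF, a log2 difference of 0.26 (SE 0.48). Mir411 had 28, 35 and 47 reads in Control and 46, 55 and 20 in CAF, a difference of 0.16 (SE 0.44). In each of these 3, CAF library 2 was highest and CAF library 5 lowest of the group. Without CAF library 2 the differences of Mir379 and Mir411 were -0.16 and -0.09, and that of Mir411 was also below 0 without Control library 1 (-0.01) or CAF library 1 (-0.02). Mir337 had 14, 6 and 7 reads in Control and 15, 20 and 7 in CAF. Mir323, a rare member, had 1 read in each Control library and 3, 3 and 2 in CAF, a counting ratio of 2.89 (95% exact interval 0.69 to 16.92, from 8 against 3 reads).

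In CAF against Control, 0 of the 20 members were called, where 0.683% of all features were. Every CAF library lay above every Control library in 3 of the 20, Mir136, Mir323 and Mir376b, against 6.48% of all features in this direction. The reverse held for 1, Mir494, against 8.19%. The 2 members with an unadjusted p under 0.05 stand beside 13% of all features. In value 11 members were higher and 9 lower, with a median log2 difference of 0.11, against 0.00 over all features; the median was -0.14 without CAF library 2. The leukocyte markers, 6 of 6 with a row and none at 0, summed to 26340 to 29862 rpm in Control and 17456 to 21498 in CAF. Their part in the differences of Mir136 and Mir376b was not tested.

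**Figure D5:**
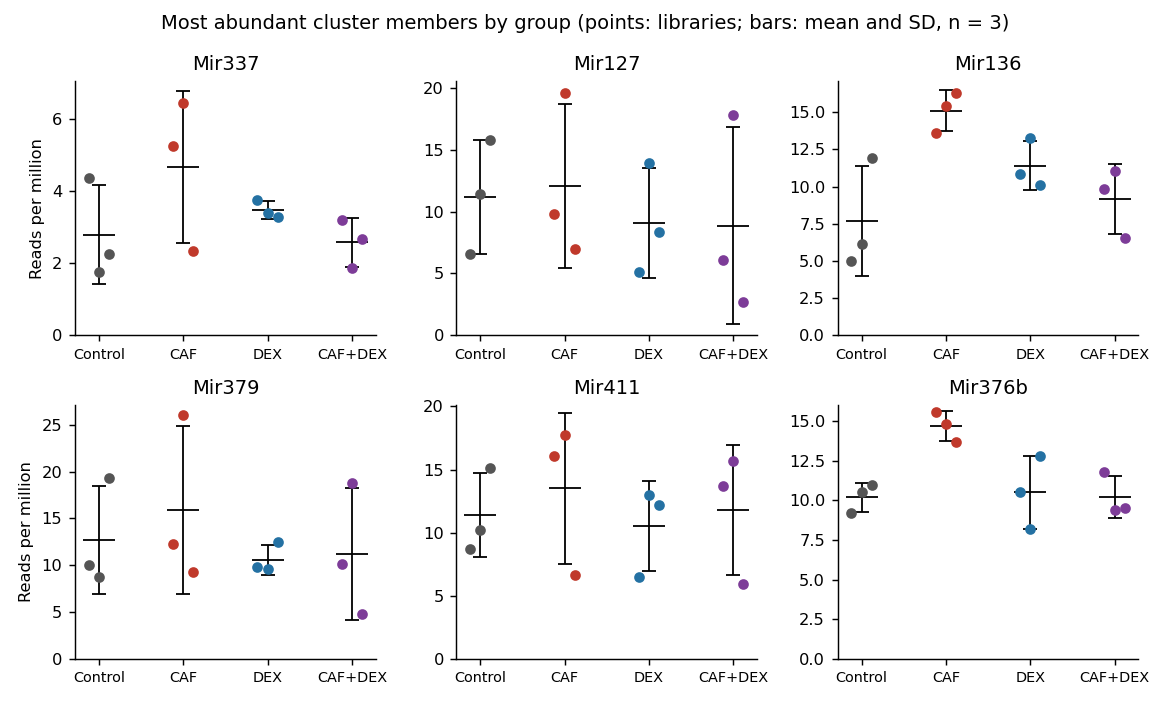
Level in rpm of the 6 most abundant cluster members in each library (points) by group, with the mean and SD of 3 libraries (bars). In the Mir136 and Mir376b panels the 3 CAF points lie above all Control and CAF+DEX points, while in the Mir127, Mir379 and Mir411 panels the groups overlap.

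Dextromethorphan alone was compared with vehicle. Mir136 had 32, 43 and 34 reads in DEX libraries 1, 2 and 4, or 11.4 ± 1.66 rpm (SD, n = 3), overlapping Control through Control library 4. Its log2 difference was 0.64 (SE 0.30, limma adjusted p = 0.842; 0.99 without Control library 4 and 0.39 without Control library 1). Mir376b had 31, 26.5 and 43 reads in DEX, close to Control in the mean (log2 difference 0.02, SE 0.21, limma adjusted p = 1.0). Mir127 had 15, 45 and 28 reads, Mir379 29, 31 and 42 (-0.17, SE 0.48) and Mir411 19, 42 and 41 (-0.13, SE 0.44), all within the Control range or overlapping it. Mir337 had 11 reads in each of the 3 DEX libraries. Mir540 had 1, 2 and 0 reads in Control and 0 in every DEX library. It also had 0 in every CAF library, and 0, 1 and 0 in CAF+DEX.

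The member with the smallest p in DEX against Control was Mir494, a rare one. It had 3, 3 and 4 reads in Control, 2, 2 and 0 in CAF, 1, 0 and 1 in DEX, and 1, 2 and 2 in CAF+DEX. All 3 Control libraries thus lay above all 9 libraries with a drug, whose highest count was 2 reads. How many of all features show this was not counted. Pair by pair, every drug library lay below every Control library in 8.19% (CAF), 4.1% (DEX) and 7.51% (CAF+DEX) of all features. The counting ratio of DEX to Control for Mir494, from 2 against 10 reads in sum, was 0.2 (95% exact interval 0.02 to 0.96). For CAF it was 0.43 (0.1 to 1.5) and for CAF+DEX 0.5 (0.13 to 1.6). These intervals leave out the spread between libraries. The limma log2 difference in DEX was -1.37 (SE 0.44, adjusted p = 0.566) and ran from -2.2 to -0.52 over the settings tried. In CAF it was -0.95 (SE 0.44, limma adjusted p = 0.365), with a range of -1.6 to -0.36 over the settings, and -0.43 without CAF library 5. In CAF+DEX it was -0.70 (SE 0.44, limma adjusted p = 0.818), with a range of -0.94 to -0.31. These 3 comparisons share the Control libraries.

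In DEX against Control, 0 of the 20 members were called, where 0% of all features were. Every DEX library lay below every Control library in 1 of the 20, Mir494, against 4.1% of all features, and above in 0, against 6.83%. The 1 member with an unadjusted p under 0.05 was Mir494, beside 4.44% of all features. In value 6 members were higher, 13 lower and Mir370 equal, with a median log2 difference of -0.12 against 0.00 over all features. The median was 0.03 without Control library 4 and -0.30 without DEX library 2.

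Both drugs together were compared with vehicle. No cluster member of the abundant group was set apart from Control. Mir136 had 31, 36 and 22 reads in CAF+DEX libraries 1, 2 and 5 (log2 difference 0.31, SE 0.30, limma adjusted p = 0.87; 0.06 without Control library 1 and 0.66 without Control library 4). Mir376b had 37, 30.5 and 32 reads, a mean of 33.17 reads, the same as in Control. Mir127 had 19, 58 and 9 reads, Mir379 32, 61 and 16 (-0.28, SE 0.48) and Mir411 43, 51 and 20 (-0.02, SE 0.44). In these 3, library 2 was highest and library 5 lowest.

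Mir300, a second-block member that averaged 7.33 reads in Control and 4.0 in CAF+DEX, had the smallest p of the members in this comparison. Its reads were 5, 9 and 8 in Control and 2, 7 and 3 in CAF+DEX, and the groups overlapped. The log2 difference was -0.81 (SE 0.41, limma adjusted p = 0.577; -0.53 without CAF+DEX library 1). Mir431, from the first block, had 1, 1 and 2 reads in Control and 0, 1 and 0 in CAF+DEX. Of the 20 members, 0 were called, as were 0% of all features, and 0 had an unadjusted p under 0.05, against 10.2%. Every CAF+DEX library lay below every Control library in 1 member, Mir494, against 7.51% of all features, and above in 0, against 7.17%. In value 5 were higher and 15 lower, with a median of -0.30 against -0.01 over all features. This median was -0.05 without CAF+DEX library 5 and also -0.05 over the 11 members above 0 in all libraries.

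In CAF+DEX against CAF, which differ by dextromethorphan, Mir136 and Mir376b again stood apart, here as the lower members. Mir136 stood at 9.16 ± 2.34 rpm in CAF+DEX against 15.1 ± 1.38 in CAF (SD, n = 3 each), and every CAF+DEX library lay below every CAF library. Its log2 difference was -0.73 (SE 0.30, limma adjusted p = 0.88). Mir376b stood at 10.2 ± 1.34 against 14.7 ± 0.952 rpm, also without overlap, with a log2 difference of -0.51 (SE 0.21, limma adjusted p = 0.88). Both were also the abundant members set apart in CAF against Control, and both comparisons use the same CAF libraries.

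Mir323, a rare second-block member, had the smallest p here. It had 3, 3 and 2 reads in CAF and 2, 0 and 0 in CAF+DEX, with 1 read in each Control library and 0, 0 and 1 in DEX. The counting ratio of CAF+DEX to CAF, from 2 against 8 reads, was 0.23 (95% exact interval 0.02 to 1.15). Mir379 had a log2 difference of -0.55 (SE 0.48; -0.06 without CAF+DEX library 5 and -1.01 without CAF+DEX library 2) and Mir411 of -0.18 (SE 0.44).

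In CAF+DEX against CAF, 0 of the 20 members were called, as were 0% of all features. Every CAF+DEX library lay below every CAF library in 3, Mir136, Mir323 and Mir376b, against 3.75% of all features, and above in 0, against 3.41%. The same 3 had an unadjusted p under 0.05, beside 5.12% of all features. In value 3 members were higher, 16 lower and Mir487b equal, with a median log2 difference of -0.39 against 0.00 over all features. The median was -0.13 without CAF library 2 and -0.08 without CAF+DEX library 5, the 2 libraries at the ends of the cluster's range.

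CAF+DEX and DEX differ by caffeine, and neither group enters CAF against Control. The cluster's abundant members overlapped between these groups, apart from Mir337. Mir136 had a log2 difference of -0.33 (SE 0.30, limma adjusted p = 0.886; -0.12 without CAF+DEX library 5) and Mir376b of -0.02 (SE 0.21, limma adjusted p = 0.998). Mir379 had -0.11 (SE 0.48) and Mir411 0.11 (SE 0.44). Mir337 had 10, 6 and 9 reads in CAF+DEX against 11 in each DEX library. Mir487b, the member with the smallest p, had 3, 0 and 2 reads in DEX and 0 in all CAF+DEX libraries. The 1, 0 and 1 reads of Mir494 in DEX and its 1, 2 and 2 in CAF+DEX are too few for a fold.

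Mir345, the member outside the cluster, had 1006, 1006 and 1091 reads in CAF+DEX and 881.33, 1001 and 848 in DEX. In rpm every CAF+DEX library lay above every DEX library, at 318 ± 7.79 against 287 ± 30.6 (SD, n = 3 each). Its log2 difference was 0.15 (SE 0.09, limma adjusted p = 0.627; 0.06 without DEX library 4). Of the 20 members, 0 were called here, as were 0% of all features, and 1, Mir487b, had an unadjusted p under 0.05, beside 7.85%. Every CAF+DEX library lay above every DEX library in 1 member, Mir345, against 4.78% of all features, and below in 1, Mir337, against 8.87%. In value 8 were higher and 12 lower, with a median of -0.03 against -0.02 over all features; it was -0.23 without CAF+DEX library 2 and 0.15 without CAF+DEX library 5.

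In the interaction, the log2 difference of CAF+DEX from CAF minus that of DEX from Control, Mir136 had the smallest p of the members, with an interaction of -1.37 (SE 0.43, limma adjusted p = 0.835). Caffeine stood at 1.04 for Mir136 where no dextromethorphan was given, and at -0.33 in its presence. Mir494 had 1.62 (SE 0.63, limma adjusted p = 0.835), from 0 to 4 reads per library, and Mir376b -0.53 (SE 0.29, limma adjusted p = 0.91). Mir379 had -0.38 (SE 0.67) and Mir411 -0.05 (SE 0.62). Of the 20 members, 0 were called, as were 0% of all features, and 2, Mir136 and Mir494, had an unadjusted p under 0.05, beside 5.46%. The members' median was -0.28 against -0.01 over all features, with 6 above 0 and 14 below; it was 0.05 without CAF library 2 and 0.06 without CAF+DEX library 5.

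The main effects set 6 libraries with a drug against 6 without it. For caffeine, Mir345 had a log2 difference of 0.16 (SE 0.06, limma adjusted p = 0.253), Mir136 0.35 (SE 0.21), Mir376b 0.24 (SE 0.15), Mir494 -0.14 (SE 0.31), Mir379 0.08 (SE 0.34) and Mir411 0.13 (SE 0.31). For caffeine, 0 of the 20 members were called, against 0.683% of all features, and 2, Mir345 and Mir487b, had an unadjusted p under 0.05, beside 14.7%. Members were split, 10 higher and 10 lower, with a median of 0.03 against -0.01 over all features; leaving out 1 library in turn gave -0.10 to 0.14.

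For dextromethorphan, 3 members were higher in value and 17 lower, with a median of -0.21 against 0.00 over all features. Leaving out 1 library in turn gave medians of -0.31 to -0.13, and the other settings gave -0.35 to -0.05. Mir323 had the smallest p, from 11 reads in the 6 libraries without dextromethorphan and 3 in the 6 with it. Mir300 had a log2 difference of -0.62 (SE 0.29, limma adjusted p = 0.645), Mir494 -0.56 (SE 0.31), Mir379 -0.36 (SE 0.34), Mir376b -0.25 (SE 0.15), Mir411 -0.16 (SE 0.31) and Mir136 -0.05 (SE 0.21). Of the 20, 0 were called, as were 0% of all features, and 2, Mir323 and Mir431, had an unadjusted p under 0.05, beside 7.51%. In the limma test of any difference between the 4 groups, 0 members were called against 0.341% of all features. There 2 members, Mir323 and Mir136, had an unadjusted p under 0.05, beside 11.3%.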

How the data were processed

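The authors deposited 1 table of FPKM for 444 features in 12 libraries. Per the submitters' processing notes, which give no parameters, cutadapt 3.7, STAR 2.7.11b, featureCounts of Subread 2.0.6 and genome build rn7 were used. Per the labels' protocols the library kit adds unique molecular indices; the sources used here do not say whether these were counted. Per the file headers, each column belongs to a known group, while its sample title is open. FPKM times length summed to 1000000 in each library. Reads were recovered as the smallest library total that made all values multiples of 0.01 read, and 50.5 to 58.3% of features above 0 then held whole reads (within 0.001 read).

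Features above 0 in at least 3 libraries entered limma 3.58.1 (limma-trend, R 4.3.3) on log2(FPKM + 4.01), with 4 group means and 12 libraries; 4.01 is the 10th percentile of tested values above 0. P-values were adjusted by the Benjamini-Hochberg method across all 293 features. Alternatives were pseudocounts of 1 and 20 FPKM, no filter or a filter on all 12 libraries, the compared groups alone, quantile and median-of-ratios scaling, limma-voom on recovered reads, a replicate block and leaving out each library. The fit was tested on simulated data. Permutation tests of correlations drew 100000 permutations. Reads per library are given for members averaging at least 10 reads. Folds are given for the 3 members of smallest p per contrast and for Mir136, Mir376b, Mir494, Mir379 and Mir411, where a group averaged over 3 reads; other named rare members were chosen by p or after their values were seen. Blocks were split at the largest gap, not by name. Members and lists were chosen with earlier results of these data known.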

Additional observations from a re-analysis of the deposited data

Results flagged for a closer look

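The 7 members averaging at least 10 reads were examined for opposite movement in the presence and absence of the other drug. Values are log2 of rpm (reads per 1000000 counted reads). The share of all features with such movement was not counted. For Mir136 all 3 DEX libraries lay above the Control mean, by 0.67 on average, and all 3 CAF+DEX libraries lay below the CAF mean, with a mean of -0.75. For caffeine, all 3 CAF libraries lay above the Control mean, by 1.08 on average, and all 3 CAF+DEX libraries lay below the DEX mean, with a mean of -0.34. Single libraries of Mir136 overlapped. Control library 4 (11.92 rpm) and CAF+DEX library 2 (11.07) both lay above DEX libraries 1 and 4 (10.88 and 10.11). These differences also share groups with one another. The interaction test of Mir136 did not pass (limma adjusted p = 0.835). For Mir337 all 3 DEX libraries lay above the Control mean, by 0.42 on average. All 3 CAF+DEX libraries lay below the CAF mean, with a mean of -0.77, at 6 to 20 reads per library. Single libraries overlapped here too. Control library 1 (4.36 rpm) lay above all 3 DEX libraries, and CAF library 5 (2.33) lay below CAF+DEX libraries 1 and 5 (3.18 and 2.68). The interaction of Mir337 was -1.06 (SE 0.55, limma adjusted p = 0.91).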

How the results depend on the processing

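No member was called in any setting but 1: without Control library 4, Mir136 was called in CAF against Control (0 to 1 members over the fits that leave out a library). Of the 20 tested members 13 averaged under 10 reads, where a single read is a large part of the value. Counts over all features ranged from 0 to 10 in CAF against Control and 0 to 11 for the caffeine main effect, where 2 were called as reported. Of 42 named member values, 23 kept their sign in every setting and 19 changed it at least once, all of them uncalled and most near 0. The cause was not tested.

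The block on header numbers was a check only: same-numbered libraries correlated at -0.13 to 0.1 over features, 0 of 11 pairs above 0.1. It called no member. With this replicate block the members' median was -0.38 in DEX against Control, 0.15 in CAF+DEX against DEX and -0.05 in the interaction. Mir376b and Mir411 then had 0.34 and 0.46 in CAF+DEX against Control, Mir376b and Mir379 0.16 and 0.44 in CAF+DEX against DEX, Mir411 0.04 in the interaction and Mir494 0.23 for caffeine.

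With a pseudocount of 20 FPKM the median was -0.09 in CAF+DEX against Control, -0.17 in CAF+DEX against CAF and -0.09 in the interaction. With no filter, where 15 of the 45 members are at 0 in all libraries, all 3 medians were 0.00. Over members above 0 in all libraries the first was -0.05. With quantile normalization Mir376b had -0.09 in DEX against Control, 0.05 in CAF+DEX against Control and 0.14 in CAF+DEX against DEX. Mir411 had 0.01 in CAF+DEX against Control and 0.04 in the interaction, and Mir379 0.04 in CAF+DEX against DEX. With median-of-ratios scaling Mir376b had 0.01 in CAF+DEX against Control.

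Leaving out a library in turn gave medians of -0.14 to 0.27 in CAF against Control, -0.30 to 0.03 in DEX against Control, -0.36 to -0.05 in CAF+DEX against Control, -0.57 to -0.08 in CAF+DEX against CAF, -0.23 to 0.15 in CAF+DEX against DEX and -0.44 to 0.06 in the interaction. For Mir379 it gave, against Control, -0.16 to 0.60 (CAF), -0.39 to 0.17 (DEX) and -0.75 to 0.21 (CAF+DEX), then -0.57 to 0.38 in CAF+DEX against DEX, -0.84 to 0.11 in the interaction and -0.16 to 0.32 for caffeine. For Mir411 it gave -0.09 to 0.59, -0.30 to 0.18 and -0.28 to 0.39 in the same 3 comparisons with Control, -0.61 to 0.23 in CAF+DEX against CAF, -0.20 to 0.52 in CAF+DEX against DEX, -0.48 to 0.36 in the interaction, -0.02 to 0.35 for caffeine and -0.37 to 0.05 for dextromethorphan. Mir376b ran, against Control, from -0.13 to 0.18 (DEX) and -0.11 to 0.05 (CAF+DEX), and from -0.19 to 0.13 in CAF+DEX against DEX. Mir136 ran from -0.17 to 0.13 for dextromethorphan and Mir494 from -0.30 to 0.12 for caffeine. Without Mir345, a choice made after seeing the data, no median moved by more than the spread between libraries.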
